A study of Homo sapiens with 4 samples.

Results

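The 32 genes described here make, control or move cholesterol and fatty acids. They were taken by symbol from a table of 58365 rows, where each symbol had 1 row, and all 32 were among the 14909 genes with a mean of at least 1 FPKM in at least 1 group. FPKM is the fragments counted per kilobase of a gene's transcripts, relative to all fragments mapped in the library. Each of the 32 genes had more than 4 FPKM in each library, so the limit on low values removed none. By role there were 7 genes of the mevalonate arm, 11 of the arm from squalene to cholesterol, 4 regulators of SREBP, 6 genes of sterol transport and efflux, and 4 of fatty acid synthesis.

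The RNA came from H1, an established line of human embryonic stem cells (hESCs), after 8 days of hematopoietic differentiation in a defined medium. All cells received 40 ng/ml activin A and 50 ng/ml BMP4 for 2 days, and then 40 ng/ml VEGF and 50 ng/ml bFGF for the remaining time. In the last 3 days the medium held SB431542, an inhibitor of the TGFβ type I receptors (2 libraries, called SB), or none (2 libraries, called DMSO by their titles). The study describes sorting CD31-positive cells, which the labels do not state. It calls its experiments independent in general, but neither the labels nor its RNA-seq methods say what the 2 libraries of a group were, so each p-value below measures the spread between these libraries of 1 cell line, which may be technical.

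Cells make cholesterol from acetyl-CoA through mevalonate, farnesyl diphosphate and squalene. When sterols in the endoplasmic reticulum are low, SCAP carries the SREBP factors to the Golgi, where they are cut and released to switch on the genes of sterol and fatty acid synthesis, while INSIG proteins hold SCAP back when sterols are plentiful. SREBP binds sterol regulatory elements and usually acts beside NF-Y, which binds the CCAAT box, whereas surplus oxysterols act through LXR, which switches on ABCA1, ABCG1 and MYLIP.

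Promoter sequences were read from RefSeq on GRCh38.p14 and covered 250 bases before to 50 bases after each start. An entry was found for 27 of the 32 genes, all but ABCG1, ACAT2, FASN, FDFT1 and SQLE. The following 60-base windows are shown because they hold the CCAAT box in front of the genes whose levels are described next. They belong to the gene with the largest difference (INSIG1), to 3 enzymes of the sterol pathway (HMGCS1, IDI1 and LSS), to the fatty acid desaturase SCD, to SREBF2, the promoter of the 27 that held the element TCACNCCAC, and to HSD17B7, an enzyme with similar levels in both groups. Capitals mark the CCAAT box, which reads ATTGG on the other strand, and in SREBF2 also TCACNCCAC. Each window lies before the start of its gene, outside the exons of that gene, and is written 5′ to 3′ on its strand. That of SREBF2 overlaps an exon of the antisense gene SREBF2-AS1.
INSIG1, chr7:155297680-155297739, plus strand: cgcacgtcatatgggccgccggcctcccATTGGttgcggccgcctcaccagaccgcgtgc
HMGCS1, chr5:43313536-43313595, minus strand: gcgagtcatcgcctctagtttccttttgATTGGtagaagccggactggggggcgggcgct
IDI1, chr10:1049205-1049264, minus strand: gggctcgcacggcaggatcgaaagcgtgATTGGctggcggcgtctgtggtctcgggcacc
LSS, chr21:46228893-46228952, minus strand: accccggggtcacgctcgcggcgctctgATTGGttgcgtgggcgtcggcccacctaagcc
SCD, chr10:100347019-100347078, plus strand: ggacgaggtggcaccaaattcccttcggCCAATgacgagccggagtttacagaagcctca
SREBF2, chr22:41832946-41833005, plus strand: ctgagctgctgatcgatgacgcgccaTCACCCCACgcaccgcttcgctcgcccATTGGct
HSD17B7, chr1:162790622-162790681, plus strand: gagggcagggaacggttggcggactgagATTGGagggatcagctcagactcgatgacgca

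Both strands were searched, and a gene was counted if any of its promoters held the letters. CCAAT was found in 21 of the 27 genes (77.8%), against 43.1% of the 10206 tested genes with an entry and 39.7% of all 27305 genes with one. The GC box GGGCGG was found in 26 of 27 (96.3%), against 77.1% of the tested genes and 48.3% of all genes. TCACNCCAC, one spelling of the sterol regulatory element, was found in 1 of 27 (3.70%), against 1.48% of the tested genes and 1.39% of all genes. The LXR element AGGTCA, 4 free bases and AGGTCA again was found in 0 of 27, and in 7 of all 35116 promoters of this length. ABCA1, CYP51A1, NPC1, PMVK, SCAP and SREBF1 had no CCAAT in this window, which says only that these letters are not there. The windows of INSIG1 and HSD17B7 both hold the box, and SB minus DMSO was 1.12 for INSIG1 and 0.12 for HSD17B7 on the log2(FPKM + 1) scale. A relation between the box and the differences was not tested.

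To examine whether the sterol and lipid genes differed when TGFβ signaling was blocked, log2(FPKM + 1) was compared between SB and DMSO libraries with limma. Most of the 32 genes were higher with SB, each by a modest amount, and INSIG1 stood apart at 2.22 times its DMSO level. With group as the only term of the fit, none passed an adjusted p of 0.05 (0 of 32, against 0.134% of all genes tested). The lowest adjusted p was that of INSIG1 (limma, 0.151). At an unadjusted p under 0.05 there were 8 genes higher with SB (4.80% of all genes tested) and 1 lower (5.16%). Both SB libraries lay above both DMSO libraries for 20 of the 32 genes, against 21.5% of all genes tested, and below them for 2, against 16.0%. The other 10 genes overlapped between the groups.

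Libraries also carry a replicate number, and differences were therefore taken within each number. The numbers are not said to pair the libraries. With the number as a block in the fit, more of the 32 genes and more of all genes tested passed, as described in the last section. Within both numbers, 29 of the 32 genes were higher with SB, against 40.9% of all genes tested, and 2 were lower (SC5D and ABCA1), against 30.6%. The median log2 fold change of the 32 genes was 0.38 (0.44 within number 1 and 0.34 within number 2), beside 0.04 for all genes tested. A log2 fold change on this scale understates the change of genes with low FPKM. In bulk RNA, fewer cells of a type and less RNA per cell cannot be told apart.

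**Figure D1:**
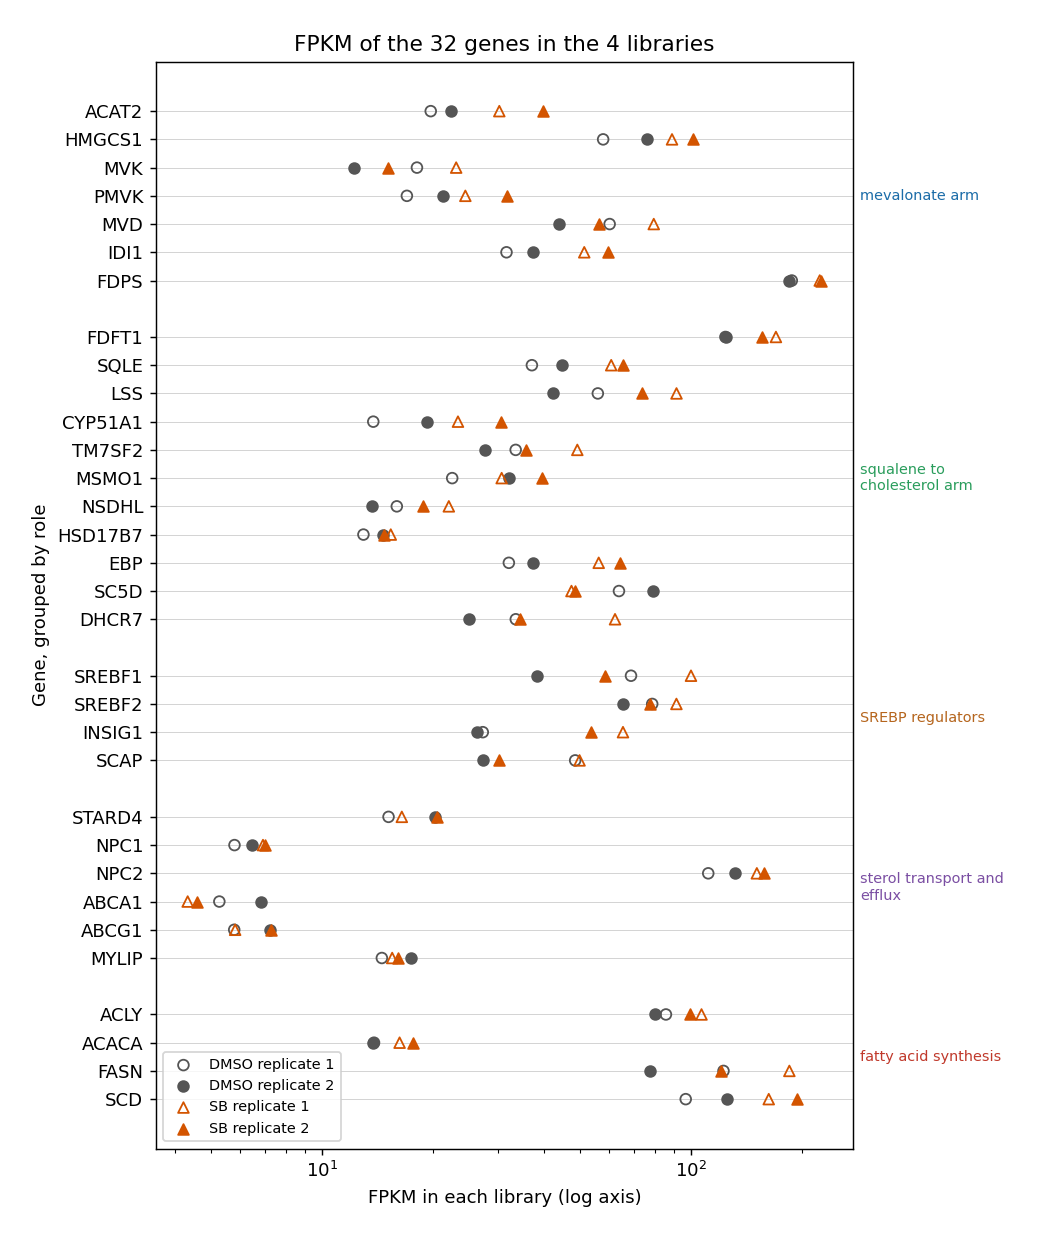
FPKM of the 32 genes on a log axis, with 1 symbol for each of the 4 libraries and the genes grouped by role. Both SB libraries lie above both DMSO libraries in 20 genes and below them in SC5D and ABCA1.

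The 7 genes of the mevalonate arm act between acetyl-CoA and farnesyl diphosphate, and not every step on the way is among them. All 7 were higher with SB within both numbers, against 40.9% of all genes tested. Both SB libraries lay above both DMSO libraries in 5 of the 7, against 21.5% of all genes tested. The median log2 fold change of the arm was 0.51, within a range of 0.27 to 0.70. ACAT2, the cytosolic thiolase of the first step (ENSG00000120437.8, chromosome 6, 159760328 to 159779055, GRCh38), had 19.7 and 22.3 FPKM in the DMSO libraries and 30.2 and 39.7 FPKM in the SB libraries. The difference was 0.70 on the log2 scale (SE 0.20, 95% interval 0.17 to 1.23, limma adjusted p 0.369). HMGCS1, the synthase that makes HMG-CoA (chromosome 5, 43289395 to 43313512), had 57.8 and 75.9 FPKM with DMSO and 88.8 and 100.9 FPKM with SB. Its log2 fold change of 0.51 had an interval of -0.02 to 1.04. IDI1, the isomerase that makes dimethylallyl diphosphate (chromosome 10, 1039908 to 1049170), had 31.6 and 37.4 FPKM with DMSO and 51.4 and 59.4 FPKM with SB, which gives 0.67 on the log2 scale (SE 0.18, limma adjusted p 0.332). In each of these 3 genes the lower SB library exceeded the higher DMSO library.

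MVK, PMVK and MVD carry mevalonate to isopentenyl diphosphate by 2 phosphorylations and a decarboxylation. PMVK had 17.0 and 21.3 FPKM with DMSO and 24.5 and 31.8 FPKM with SB, without overlap (log2 fold change 0.53). MVK had 18.1 and 12.2 FPKM with DMSO and 23.1 and 15.1 FPKM with SB, and MVD had 60.2 and 43.9 FPKM with DMSO and 79.2 and 56.2 FPKM with SB. In MVK and MVD the groups overlapped because the libraries numbered 1 were higher than those numbered 2 in both groups, while the log2 difference with SB was 0.34 and 0.29 in MVK and 0.39 and 0.35 in MVD within numbers 1 and 2. FDPS, the farnesyl diphosphate synthase and the most abundant of the 32 genes, had 187 and 184 FPKM with DMSO and 223 and 225 FPKM with SB. Its difference was the smallest of the arm (log2 fold change 0.27, SE 0.15, limma adjusted p 0.689).

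Of the 11 genes from squalene to cholesterol, 10 were higher with SB within both numbers (40.9% of all genes tested) and 1 was lower (30.6%). The median log2 fold change of the 11 genes was 0.45. Both SB libraries lay above both DMSO libraries in 9 of them, against 21.5% of all genes tested. EBP, the sterol isomerase (ENSG00000147155.10, chromosome X, 48521158 to 48528716), differed most, with 32.1 and 37.2 FPKM in the DMSO libraries and 56.2 and 64.3 FPKM in the SB libraries. This is 34.7 ± 3.63 against 60.3 ± 5.75 FPKM (SD, 2 libraries each) and a log2 fold change of 0.78 (SE 0.18, 95% interval 0.32 to 1.24, limma adjusted p 0.262). The log2 difference of EBP was 0.79 within number 1 and 0.77 within number 2.

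The committed steps at the head of this arm were also higher in both SB libraries. FDFT1, the squalene synthase, had 124 FPKM in both DMSO libraries and 170 and 155 FPKM in the SB libraries (log2 fold change 0.39, interval -0.01 to 0.79). SQLE, the squalene epoxidase and a rate-limiting enzyme of the pathway, had 37.1 and 44.7 FPKM with DMSO and 60.8 and 65.5 FPKM with SB (log2 fold change 0.62, interval 0.16 to 1.08). LSS closes the ring to lanosterol, and it had 55.9 and 42.2 FPKM with DMSO and 91.3 and 73.6 FPKM with SB (log2 fold change 0.74, interval 0.17 to 1.32). CYP51A1 removes a methyl group from lanosterol, and its levels were 13.8 and 19.2 FPKM with DMSO and 23.4 and 30.7 FPKM with SB (log2 fold change 0.68, interval 0.05 to 1.32). The limma adjusted p of SQLE, LSS and CYP51A1 was 0.359, 0.379 and 0.470, so their intervals lay above 0 only before adjustment over all genes.

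The later steps differed less evenly. TM7SF2, a sterol reductase, had 33.5 and 27.7 FPKM with DMSO and 49.2 and 35.6 FPKM with SB (log2 fold change 0.45). NSDHL, which removes a carboxyl group from the sterol, had 16.0 and 13.6 FPKM with DMSO and 22.1 and 18.7 FPKM with SB (log2 fold change 0.44). MSMO1, the methyl sterol oxidase, had 22.5 and 32.2 FPKM with DMSO and 30.7 and 39.4 FPKM with SB, and these values overlapped. DHCR7, the reductase of 7-dehydrocholesterol, had 33.5 and 25.0 FPKM with DMSO and 62.2 and 34.3 FPKM with SB, so its log2 difference was 0.87 within number 1 but 0.44 within number 2. HSD17B7, a keto reductase, showed almost no difference within number 2, with 13.0 and 14.6 FPKM with DMSO and 15.4 and 14.7 FPKM with SB (log2 fold change 0.12, interval -0.31 to 0.55).

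SC5D, the desaturase that makes 7-dehydrocholesterol (ENSG00000109929.9, chromosome 11, 121292453 to 121308694), was the exception of the arm. It had 63.8 and 78.6 FPKM in the DMSO libraries and 47.4 and 48.6 FPKM in the SB libraries, so both SB libraries were below both DMSO libraries. Its mean was 71.2 ± 10.5 FPKM with DMSO and 48.0 ± 0.841 FPKM with SB, and its log2 fold change was -0.55 (SE 0.18, 95% interval -1.02 to -0.08, limma adjusted p 0.424). Within numbers 1 and 2 the difference was -0.42 and -0.68. The FPKM of all 18 enzymes of both arms came to a sum of 837 and 856 with DMSO and of 1148 and 1109 with SB.

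**Figure D2:**
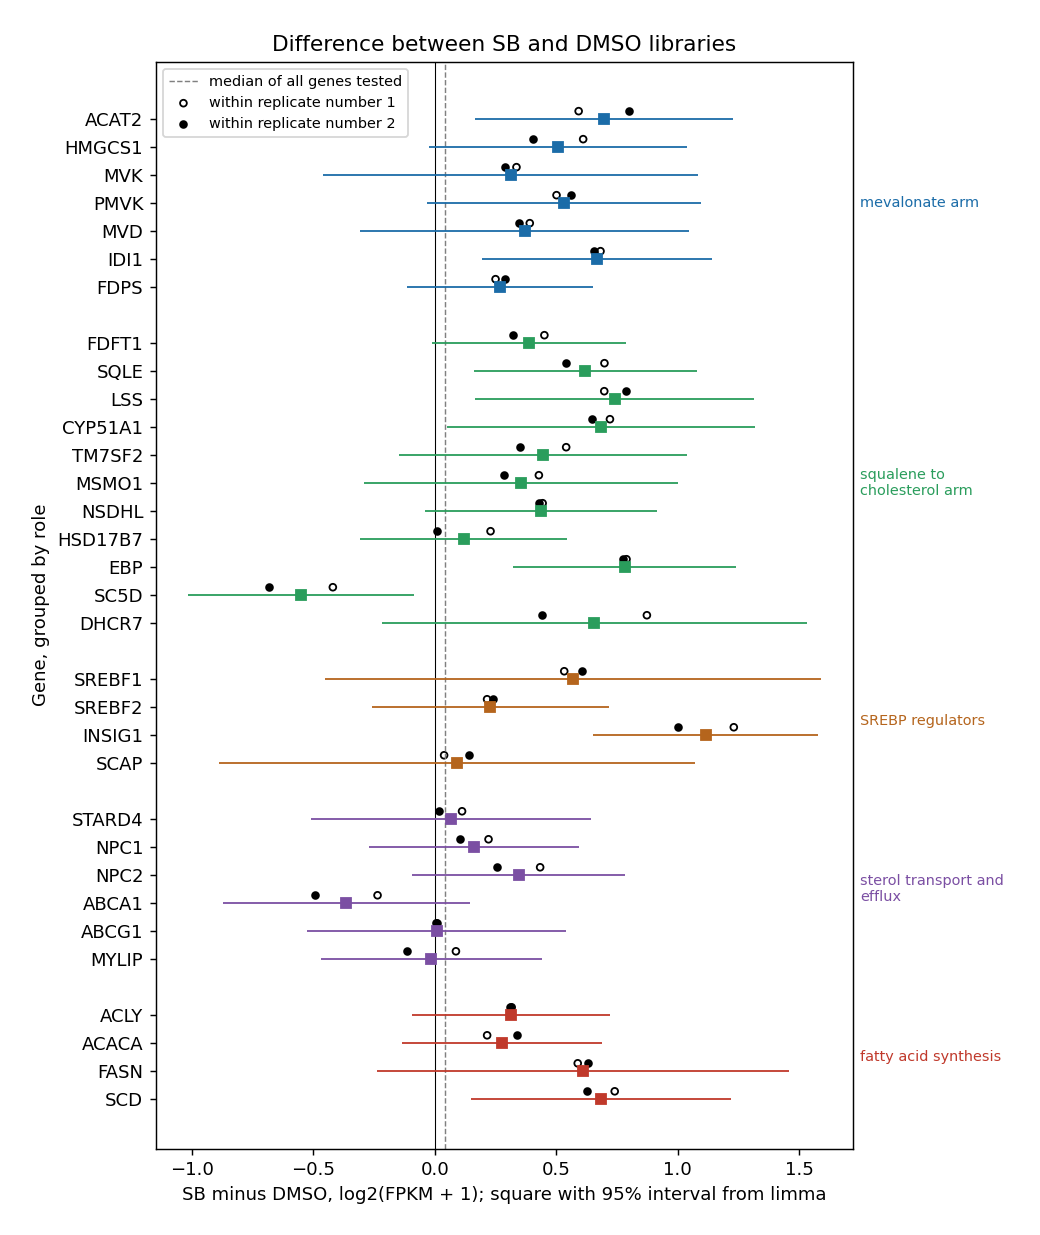
SB minus DMSO on the log2(FPKM + 1) scale for each of the 32 genes, as a square with its 95% interval from limma, with small circles for the differences within replicate numbers 1 and 2 and a dashed line at the median of all genes tested. INSIG1 lies farthest to the right at 1.12, and the intervals of 9 genes leave out 0.

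Among the 4 regulators, INSIG1 had the largest difference of the 32 genes. INSIG1, itself a target of SREBP (ENSG00000186480.12, chromosome 7, 155297776 to 155310235), had 27.3 and 26.3 FPKM in the DMSO libraries and 65.4 and 53.5 FPKM in the SB libraries. The mean was 26.8 ± 0.728 FPKM with DMSO and 59.4 ± 8.41 FPKM with SB (SD, 2 libraries each), and the log2 fold change was 1.12 (SE 0.18, 95% interval 0.65 to 1.58, unadjusted p 0.00175 and adjusted p 0.151 with limma). Both SB libraries were far above both DMSO libraries, with a log2 difference of 1.23 within number 1 and close to 1 within number 2.

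The genes of the 2 SREBP precursors and of their escort overlapped between the groups. SREBF2, which encodes the SREBP that acts mainly on sterol genes, had 78.4 and 65.3 FPKM with DMSO and 91.2 and 77.4 FPKM with SB (log2 fold change 0.23, interval -0.26 to 0.72). SREBF1, whose product acts mainly on fatty acid genes, had 68.7 and 38.2 FPKM with DMSO and 99.9 and 58.5 FPKM with SB (log2 fold change 0.57, interval -0.45 to 1.59). SCAP had 48.5 and 27.3 FPKM with DMSO and 49.9 and 30.2 FPKM with SB (log2 fold change 0.09, interval -0.89 to 1.07). In SREBF1 and SCAP the libraries numbered 1 were far higher than those numbered 2 in both groups, and the intervals reach well to both sides of 0. The median of the 4 regulators was 0.40, but it was 0.13 without DMSO replicate 2 and 0.74 without DMSO replicate 1.

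For the 6 genes of sterol transport and efflux the median log2 fold change was 0.04, equal to that of all genes tested at 2 decimals. NPC2, the lysosomal sterol carrier, had 111 and 132 FPKM with DMSO and 151 and 158 FPKM with SB (log2 fold change 0.35), and its membrane partner NPC1 had 5.80 and 6.46 FPKM with DMSO and 6.93 and 7.01 FPKM with SB (0.16). Both SB libraries lay above both DMSO libraries in these 2 of the 6 genes (33.3%, against 21.5% of all genes tested). STARD4, a cytosolic sterol carrier, had 15.2 and 20.2 FPKM with DMSO and 16.5 and 20.5 FPKM with SB, a log2 fold change of 0.07 (interval -0.51 to 0.64).

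Of the 3 genes named above as switched on by LXR, which are not all its targets, ABCA1 was lower with SB within both numbers. ABCG1 and MYLIP were near 0. ABCA1, a cholesterol exporter (ENSG00000165029.15, chromosome 9, 104781002 to 104928237), had 5.28 and 6.86 FPKM with DMSO and 4.33 and 4.59 FPKM with SB, below both DMSO libraries, and differed by -0.36 on the log2 scale (SE 0.20, interval -0.87 to 0.14, limma adjusted p 0.681). ABCG1, another exporter, had 5.79 and 7.24 FPKM with DMSO and 5.83 and 7.30 FPKM with SB. MYLIP, an E3 ubiquitin ligase, had 14.5 and 17.5 FPKM with DMSO and 15.5 and 16.1 FPKM with SB. ABCG1 and MYLIP thus overlapped, with log2 fold changes of 0.01 (interval -0.52 to 0.54) and -0.01 (interval -0.47 to 0.44), and the sign of either turned under other settings.

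All 4 genes of fatty acid synthesis were higher with SB within both numbers, against 40.9% of all genes tested. Their median log2 fold change was 0.46. SCD, the desaturase that makes oleate (ENSG00000099194.5, chromosome 10, 100347124 to 100364834), had 96.7 and 124.7 FPKM with DMSO and 162 and 193 FPKM with SB, without overlap (log2 fold change 0.68, SE 0.21, interval 0.15 to 1.22, limma adjusted p 0.383). FASN, the fatty acid synthase, had 122 and 77.2 FPKM with DMSO and 184 and 120.1 FPKM with SB. The SB library numbered 2 was thus level with the DMSO library numbered 1, although the log2 difference of FASN was 0.59 and 0.63 within numbers 1 and 2. ACLY, which supplies cytosolic acetyl-CoA, had 85.5 and 79.9 FPKM with DMSO and 107 and 99.4 FPKM with SB (log2 fold change 0.31). ACACA, the carboxylase that makes malonyl-CoA, had 13.9 and 13.8 FPKM with DMSO and 16.2 and 17.7 FPKM with SB (0.28). The summed FPKM of the 4 genes was 318 and 296 with DMSO and 470 and 430 with SB.

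Libraries of the same treatment but of different replicate number also differed. The difference between numbers was larger in size than the difference between treatments in 10 genes, and it followed the GC content of the longest transcript. Across the 32 genes, which share the same libraries, Pearson's r between GC content and the difference of number 2 from number 1 was -0.77 (Spearman's rho -0.71), and across 14880 tested genes it was -0.52. Of the 11 genes with a GC content of at least 55%, a limit chosen after the values were seen, 10 were higher in number 1, and of the other 21 genes 17 were higher in number 2. Between treatments, r with GC content was 0.22 across the 32 genes and -0.10 across all tested genes. SREBF1, SCAP, FASN and DHCR7, with GC contents of 58.3% to 65.3%, had the largest differences between numbers (-0.80, -0.76, -0.64 and -0.62 on the log2 scale), and these genes also had the widest intervals between treatments.

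**Figure D3:**
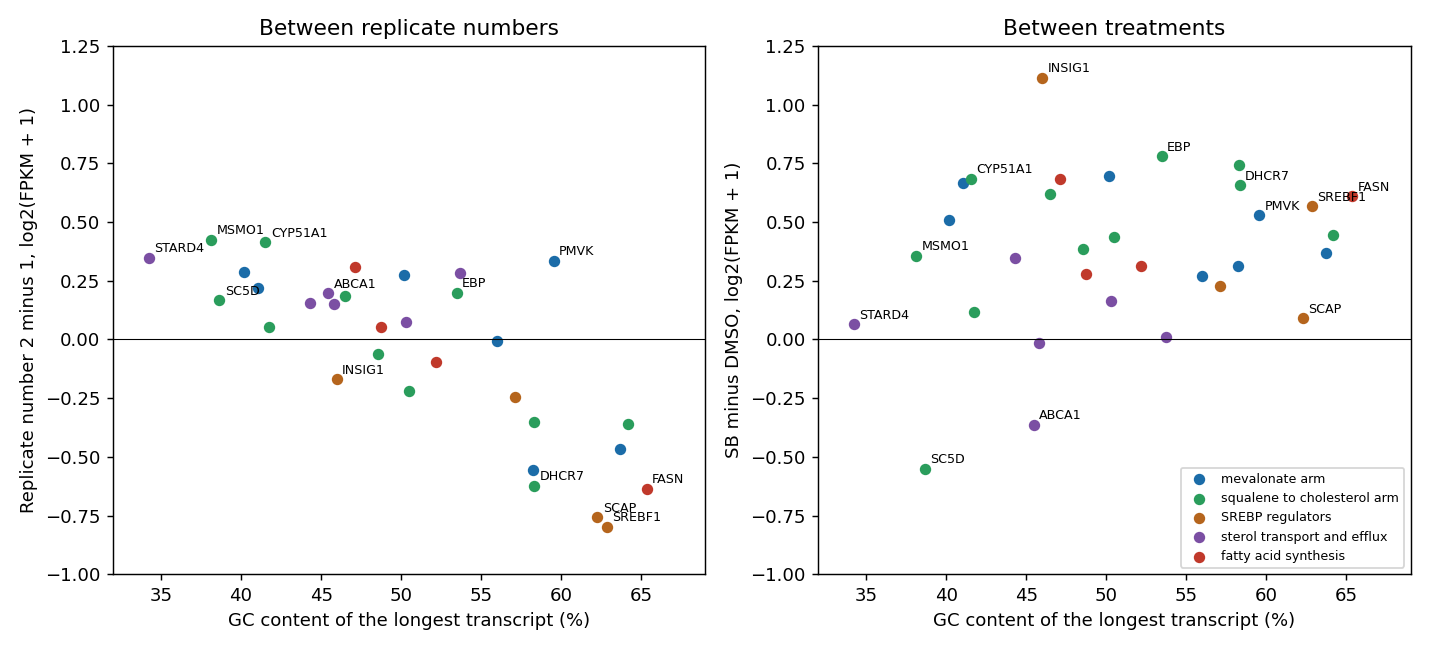
GC content of the longest transcript against the difference of replicate number 2 from number 1 (left) and of SB from DMSO (right), both on the log2(FPKM + 1) scale, with 1 point for each of the 32 genes. The left panel falls with GC content (r -0.77), and the right panel does not follow it (r 0.22).

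Mitochondrial genes and RN7SL, the RNA of the signal recognition particle, also separated the numbers. Mitochondrial genes made up 5.88% to 6.64% of the FPKM sum in the libraries numbered 1 and 9.92% to 10.2% in those numbered 2, and RN7SL 3.96% to 4.45% against 1.40% to 1.54%. The FPKM of a library summed to between 570844 and 612614. The number of fragments is unknown, and the relative depth, estimated from the steps between low values of single-exon genes, ran from about 75.7% to 100% of the deepest library. Each step was shared by as few as 8 of 621 genes, so these depths are approximate.

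Some of the 32 genes share exons with a neighbor, and strand use in counting is not given in the sources used here. ACAT2 overlaps TCP1 on the other strand by up to 397 bases, and TCP1 had 97.9 to 124 FPKM, more than ACAT2 in each library. MVK overlaps MMAB by up to 225 bases (17.2 to 29.7 FPKM), and SREBF1 overlaps RAI1 by up to 442 bases (17.6 to 30.3 FPKM), in both cases on the other strand. NPC1 overlaps RMC1 by up to 304 bases, and RMC1 (6.49 to 8.69 FPKM) was above NPC1 in 3 of the 4 libraries. NPC2 overlaps ISCA2 by up to 103 bases (16.9 to 22.8 FPKM), and FDPS overlaps RUSC1-AS1 by up to 258 bases (4.55 to 6.55 FPKM). FDFT1, SREBF2 and STARD4 share exons with antisense genes of at most 2.65 FPKM, and TM7SF2 shares 16 bases with VPS51 on the same strand (70.7 to 75.3 FPKM). The values of these 10 genes are uncertain to that extent. Among them, ACAT2, FDPS, FDFT1, TM7SF2, NPC1 and NPC2 had both SB libraries above both DMSO libraries. Of the neighbors, TCP1, MMAB, ISCA2 and SREBF2-AS1 were also higher in both SB libraries, and the others overlapped between the groups. The part of the neighbors in these values was not tested. The pseudogene copies of FDPS, CYP51A1, HSD17B7 and SCD had at most 0.447 FPKM.

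To see whether the difference reached the rest of the pathway, 73 further genes of lipid metabolism were examined, of which 68 were tested. With group as the only term of the limma fit, none passed an adjusted p of 0.05, and their median log2 fold change was 0.11. At an unadjusted p under 0.05, 5 were higher and 3 lower with SB (7.35% and 4.41%), near the 4.80% and 5.16% of all genes tested. Both SB libraries lay above both DMSO libraries in 19 of the 68 genes (27.9%, against 21.5% of all genes tested) and below them in 8 (11.8%, against 16.0%). The 10 genes that process SREBP or degrade sterol-regulated proteins had a median of 0.12, and the range from -0.25 (SPRING1) to 0.27 (ERLIN2) was narrow. The 11 tested genes of fatty acid oxidation had a median of 0.14, without any at an unadjusted p under 0.05.

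The 20 tested genes of fatty acid elongation, desaturation and supply held differences in both directions. ELOVL6, the elongase that extends palmitate, had 43.4 and 47.8 FPKM with DMSO and 20.5 and 22.4 FPKM with SB, which is -1.05 on the log2 scale (SE 0.16, interval -1.48 to -0.62, limma adjusted p 0.144). Both SB libraries were thus at less than 23 FPKM, while FASN and SCD on either side of this step were higher with SB within both numbers. The desaturases of polyunsaturated fatty acids had the opposite direction. FADS1 had 52.4 and 49.9 FPKM with DMSO and 71.2 and 77.4 FPKM with SB, and FADS2 had 276 and 207 FPKM with DMSO and 429 and 357 FPKM with SB. Their log2 fold changes were 0.53 and 0.71, with limma adjusted p of 0.377 and 0.388.

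Among the 16 tested LXR factors and other genes of sterol handling, the median log2 fold change was 0.07. LPCAT3, a lysophospholipid acyltransferase that LXR also switches on, had 16.4 and 16.5 FPKM with DMSO and 23.8 and 25.2 FPKM with SB (log2 fold change 0.55, limma adjusted p 0.356). CYP27A1, which makes 27-hydroxycholesterol, had 12.4 and 11.2 FPKM with DMSO and 7.19 and 7.76 FPKM with SB (log2 fold change -0.59, limma adjusted p 0.348). LPCAT3 and ABCA1 therefore lay on opposite sides of 0 with SB. In the branches that lead from farnesyl diphosphate to other isoprenoids, the median of 11 genes was 0.10. Both SB libraries were above both DMSO libraries in 3 of the 11 (27.3%, against 21.5% of all genes tested). These were PDSS1 and COQ2 of ubiquinone synthesis and FNTB of protein farnesylation (0.64, 0.50 and 0.58 on the log2 scale).

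**Figure D4:**
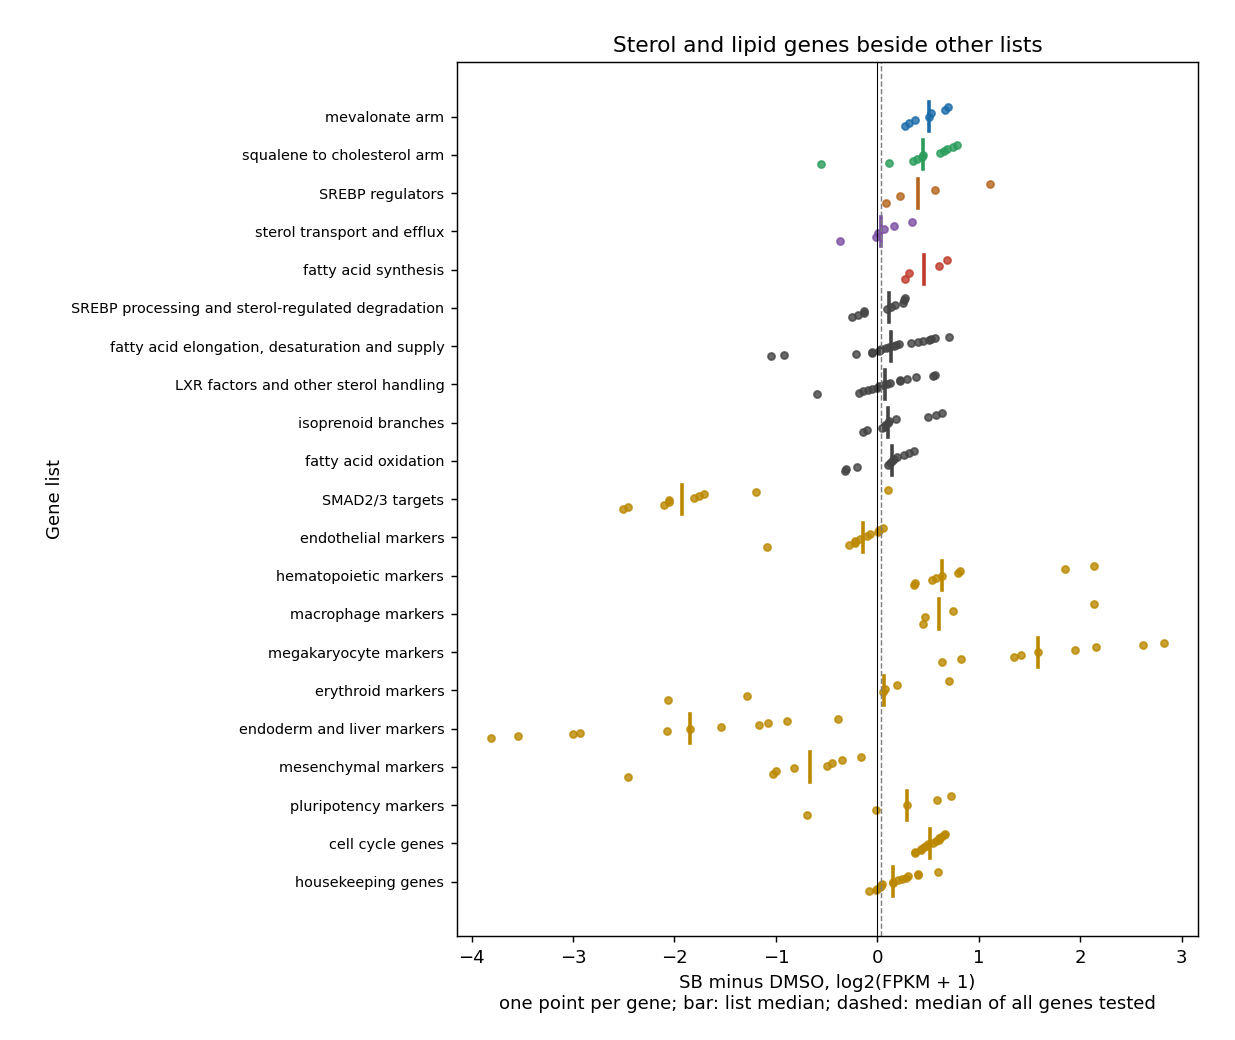
SB minus DMSO on the log2(FPKM + 1) scale for the 5 roles of the 32 genes, 5 further lists of lipid genes and 11 lists of cell type, target and reference genes, with 1 point per tested gene, a bar at each list's median and a dashed line at the median of all genes tested. The medians of 3 of the 5 roles lie between 0.45 and 0.51, that of SREBP regulators at 0.40 and that of sterol transport and efflux at 0.04. The median is 0.52 for cell cycle genes and 0.07 to 0.14 for the further lipid lists.

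Markers of signaling and of cell types also differed with SB. TGFBI, a target of SMAD2/3, fell from 29.7 and 31.0 FPKM to 4.10 and 4.93 FPKM (log2 fold change -2.51, limma adjusted p 0.0365). The endothelial markers PECAM1, which encodes CD31, and CDH5 had 153 to 197 and 202 to 273 FPKM over the 4 libraries, and 10 endothelial markers had a median log2 fold change of -0.14. Hematopoietic markers were higher in both SB libraries in 9 of 9 tested genes, against 21.5% of all genes tested. Their summed FPKM was 401 and 363 with DMSO and 629 and 569 with SB. The pan-leukocyte gene PTPRC, however, had at most 0.202 FPKM. Megakaryocyte markers were higher in both SB libraries in 9 of 9 tested genes, against 21.5% of all genes tested. Their sum was 300.2 and 289 FPKM with DMSO and 736 and 825 FPKM with SB. ITGA2B, named after its values were seen, is in both of these lists and so in both counts and sums. It had 153 and 127 FPKM with DMSO and 243 and 194 FPKM with SB. Erythroid markers did not share the pattern of the hematopoietic and megakaryocyte lists. Of 6 tested, 1 was higher in both SB libraries, against 21.5% of all genes tested, and 2 were lower, against 16.0%. Their log2 fold changes ranged from -2.06 to 0.71 around a median of 0.07. The lowest value was that of ALAS2, an enzyme of heme synthesis named after its values were seen, with 53.3 and 46.4 FPKM with DMSO and 11.7 and 10.7 FPKM with SB (limma adjusted p 0.0605). Among 5 tested pluripotency markers, 3 were higher in both SB libraries, against 21.5% of all genes tested, and 1 was lower, against 16.0%.

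Macrophages handle much sterol, and their marker list divided into genes that were expressed and genes close to 0. Of 10 markers, 4 were tested, all higher in both SB libraries, against 21.5% of all genes tested. The 10 together had a sum of 32.4 and 38.5 FPKM with DMSO and 59.9 and 63.9 FPKM with SB. CSF1R, which is also in the hematopoietic list, had 1.83 to 2.77 FPKM with DMSO and 12.5 to 14.4 FPKM with SB. The other 3 tested markers, named after their values were seen, were MRC1 (16.5 and 22.9 FPKM with DMSO, 24.1 and 30.1 FPKM with SB), CD68 (5.35 to 12.1 FPKM) and LYZ (5.39 to 10.2 FPKM). The remaining 6 had at most 0.588 FPKM in any library, the value of CD163, and CD14 had at most 0.169 FPKM. The liver makes sterols and lipoproteins, and endoderm and liver markers had the opposite direction to the sterol genes. Their sum was 297 and 333 FPKM with DMSO but 31.6 and 34.0 FPKM with SB. Of 11 tested, 10 were lower in both SB libraries, against 16.0% of all genes tested. AFP fell from 43.5 and 54.2 to 3.45 and 3.05 FPKM (log2 fold change -3.55, limma adjusted p 0.0232).

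Mesenchymal markers were lower in both SB libraries in 7 of 8 tested genes, against 16.0% of all genes tested. Their sum was 414 and 373 FPKM with DMSO and 212 and 211 FPKM with SB. Growing cells also make more sterol and lipid. Cell cycle genes were higher with SB within both numbers in 14 of 14, against 40.9% of all genes tested. Their median on the log2 scale was 0.52, beside 0.38 for all 32 genes. By role, the medians of the 32 genes ran from 0.04 for sterol transport and efflux to 0.51 for the mevalonate arm. MKI67 had 6.30 and 7.88 FPKM with DMSO and 10.2 and 11.9 FPKM with SB. For 15 housekeeping genes the median was 0.16, and 6 of them were higher in both SB libraries (40.0%, against 21.5% of all genes tested). The part of these markers, of cell cycle genes and of GC content in the values of the 32 genes was not tested.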

How the data were processed

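RNA-seq was measured in 2 DMSO and 2 SB libraries, grouped by their titles. The authors deposited FPKM values without counts. BWA, Bowtie, RSEM and the build hg19 are listed in the submitters' processing notes, with no version or role. GENCODE release 29 on GRCh38, however, held 95.5% of the 58274 identifiers in the same version, 99.97% of them at the same position, so coordinates are on GRCh38 and counted from 1. Values were taken as log2(FPKM + 1). Genes with a mean of at least 1 FPKM in at least 1 group were fitted with limma 3.58.1 in R 4.3.3 (empirical Bayes with a trend, group as the only term, all 4 libraries), and two-sided p-values received a Benjamini-Hochberg adjustment over all genes tested (threshold 0.05). As no counts were given, no count test was run. With 2 libraries against 2, the exact permutation test has a smallest two-sided p of 0.333 and was not used. The fit was tested on simulated data, in which changes as small as those of most of the 32 genes did not pass the adjusted threshold. The simulated libraries varied independently, without the difference between replicate numbers that these data hold. It therefore does not cover a fit with the number as a block. Intervals are 95% intervals from limma. Of the sources of spread, counting error could not be separated, since absolute depth is unknown.

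The members and the lists were chosen with earlier results of these data known. Named were all 32 members, up to 3 tested genes per further lipid list with the smallest unadjusted p and a mean of 5 FPKM or more in one group, and a set of marker genes. Neighbors that share exons were named after their values were seen. Motifs were searched as exact letters on both strands of RefSeq promoters. The fit was repeated with the replicate number as a block, with no filter on low values, with a minimum of 5 FPKM in 2 libraries, a pseudocount of 0.1, quantile normalization, upper-quartile scaling, rescaling without mitochondrial, RN7SL and RN7SK rows, no trend, rows of a symbol summed, and each library left out.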

Additional observations from a re-analysis of the deposited data

How the results depend on the processing

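The limits are 2 libraries per group, an unknown depth and a difference between replicate numbers that follows GC content. Without a block, 20 genes of the whole table passed an adjusted p of 0.05, against 0 without a filter on low values (2739 at an unadjusted p under 0.05), 31 after quantile normalization, and 0 to 14 with 1 library left out (0 without DMSO replicate 1, with 1168 at an unadjusted p under 0.05, 14 without DMSO replicate 2, 10 without SB replicate 1 and 9 without SB replicate 2). In the last 4 fits the lone library of a group is assumed to vary like the other group. Of the 32 genes, 0 passed in each of these fits, and also with a correction for GC content, which was added after seeing the data and under which 131 genes of the whole table passed. At an unadjusted p under 0.05 there were 9 of the 32 genes (9.96% of all genes tested), 18 with the GC correction (16.0% of all), and 3 to 8 with 1 library left out: 4 without DMSO replicate 1 (7.78% of all), 8 without DMSO replicate 2 (9.40%), 3 without SB replicate 1 (6.13%) and 3 without SB replicate 2 (6.11%). Of the further lipid genes, 1 (ELOVL6) passed the adjusted p with the GC correction.

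The numbers in the titles are not said to pair the libraries, and there are only 2 pairs. Deviations from the group means correlated at 0.53 between libraries of the same number over 14909 genes. With the replicate number as a block, 1564 genes passed an adjusted p of 0.05 (10.5% of those tested), among them 20 of the 32 genes, 19 higher and SC5D lower with SB, and 10 of the 68 further lipid genes, and 26 of the 32 had an unadjusted p under 0.05 (30.4% of all genes). With block and GC correction together, 1512 genes passed, among them 17 of the 32, 16 of them higher, and 8 further lipid genes, and 25 of the 32 had an unadjusted p under 0.05 (31.1% of all genes).

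The median log2 fold change of the 32 genes ranged from 0.29 to 0.45 with 1 library left out. That of the mevalonate arm ranged from 0.51 to 0.68, that of the arm from squalene to cholesterol from 0.33 to 0.55, that of sterol transport and efflux from -0.13 (without DMSO replicate 1) to 0.19 (without DMSO replicate 2), and that of fatty acid synthesis from 0.28 (without DMSO replicate 2) to 0.46. Of 480 single values, 15 for each of the 32 genes, 467 kept their sign, and 28 genes kept it throughout. Of these 28, however, 14 moved by over 1.5 times when 1 library was left out, such as MVK (0.021 to 0.60), MVD (0.13 to 0.61), MSMO1 (0.11 to 0.60), DHCR7 (0.24 to 1.08), SREBF1 (0.15 to 0.98) and FASN (0.28 to 0.94). The other 4 were close to 0. With 1 library left out, SCAP ranged from -0.31 to 0.49 and was below 0 without DMSO replicate 2 or SB replicate 1 (-0.26). STARD4 ranged from -0.13 to 0.26 and was below 0 without DMSO replicate 1 or SB replicate 2 (-0.085). MYLIP ranged from -0.14 to 0.11 and was above 0 without DMSO replicate 2 or SB replicate 1 (0.011). ABCG1 turned to -0.0016 after quantile normalization, -0.029 after upper-quartile scaling, -0.031 after rescaling, and -0.025 with the GC correction, with or without the block, and it ranged from -0.13 (without DMSO replicate 1 or SB replicate 2) to 0.15 with 1 library left out. The cause of these changes was not tested.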
